A study of Caenorhabditis elegans with 2 samples.

Results

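The 346 genes annotated as small nucleolar RNA (snoRNA) genes on the nuclear chromosomes of Caenorhabditis elegans (Ensembl models, WBcel235 assembly, which is ce11) were examined for sites of the zinc-finger protein LIR-1, out of 46890 nuclear genes of any kind. Of them, 216 lay wholly inside the body of a protein-coding gene, on either strand, and are called inside genes. The other 130 are called outside genes, and 6 of these overlapped a protein-coding gene in part. A gene had a site when the summit of a peak of the authors' conservative set, 1209 peaks found in both libraries together, lay in the gene or within 200 bp of its 5′ end. By that rule 61 snoRNA genes had a site, at 62 of the 1209 peaks.

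The chromatin came from whole young adult worms of strain RW12318, collected 63 hours after synchronisation as starved first-stage larvae. A CRISPR insertion on chromosome II, written TY1::EGFP::3xFLAG::lir-1 with allele name st12318, gives them a tagged LIR-1 made from its own gene, and the chromatin was precipitated through the GFP part of the tag. There were 2 libraries of this 1 group, labelled biological replicates 1 and 2, so no conditions were compared and no p-values are given. Whole animals mix all tissues, and no library of untagged animals was analysed here. A site is therefore a place of reproducible precipitation, and the depth of the libraries is unknown because the files give no read totals.

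snoRNAs guide enzymes to ribosomal and spliceosomal RNA. Box C/D snoRNAs direct methylation of the ribose and hold box C near the start and box D near the end, while H/ACA snoRNAs direct the change of uridine to pseudouridine and end with the letters ACA near the 3′ end. In animals many lie in introns and are cut out of the host transcript, while others are transcribed from promoters of their own. RNA polymerase III reads tRNA genes through an internal A box and B box and stops at a run of T. Genes for spliceosomal snRNAs have a conserved element shortly upstream of the start.

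Many genes with a site carried 1 of 2 sequence layouts upstream, and the sequences below show them on the gene's own strand in WBcel235, from 110 bases before the gene to 25 bases after it. The letters were chosen after the upstream sequences of genes with a site had been read. The first layout is an A box, GGNNNAGNGG or with 1 more base GGNNNAGNNGG, followed after 15 to 70 bases by the B box core GTTCNA, on the gene strand from 150 bases before to 20 bases into the gene. T03F7.8 and C51F7.3 lie inside protein-coding genes, W03C9.9 and T06C12.16 lie outside, and each is among the strongest sites of its class. T24H7.6 has the pair but no site, and it holds both the box D letters and, unmarked, the letters ACA 3 bases before its end. Capitals mark the A box, the B box core, box C and box D where found, and the first run of at least 4 T after the gene.
T03F7.8: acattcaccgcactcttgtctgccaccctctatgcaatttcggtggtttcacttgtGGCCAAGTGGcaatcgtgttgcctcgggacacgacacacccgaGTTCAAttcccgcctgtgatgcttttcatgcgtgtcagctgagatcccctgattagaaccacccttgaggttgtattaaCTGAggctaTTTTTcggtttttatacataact
C51F7.3: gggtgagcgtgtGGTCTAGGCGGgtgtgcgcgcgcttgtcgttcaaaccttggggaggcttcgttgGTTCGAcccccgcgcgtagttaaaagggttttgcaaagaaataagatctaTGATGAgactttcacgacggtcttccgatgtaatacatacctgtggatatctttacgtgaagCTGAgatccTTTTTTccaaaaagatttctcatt
W03C9.9: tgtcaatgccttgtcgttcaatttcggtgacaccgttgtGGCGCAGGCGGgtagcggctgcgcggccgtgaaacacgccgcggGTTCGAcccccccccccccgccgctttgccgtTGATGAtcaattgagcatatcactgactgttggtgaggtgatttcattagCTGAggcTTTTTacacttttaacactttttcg
T06C12.16: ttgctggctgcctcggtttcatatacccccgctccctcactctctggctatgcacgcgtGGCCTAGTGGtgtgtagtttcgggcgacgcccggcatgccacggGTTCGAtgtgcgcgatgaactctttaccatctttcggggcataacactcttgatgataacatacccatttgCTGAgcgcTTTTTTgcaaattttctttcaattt
T24H7.6: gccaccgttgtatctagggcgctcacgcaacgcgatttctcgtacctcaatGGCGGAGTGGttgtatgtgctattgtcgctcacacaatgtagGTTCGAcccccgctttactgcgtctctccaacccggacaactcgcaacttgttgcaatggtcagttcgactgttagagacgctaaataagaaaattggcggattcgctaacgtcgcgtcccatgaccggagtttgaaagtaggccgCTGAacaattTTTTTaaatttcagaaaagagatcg

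The second layout is CGNAACNNG, then 5 bases, then TGTC, called the 2-part element here. ZK994.7 and Y55F3BR.9 are inside genes with 2 of the strongest inside sites, and Y53F4B.47 and C16D9.10 are outside genes, the last with one of the weakest sites. Capitals mark both parts of the element, box C, box D and the T run.
ZK994.7: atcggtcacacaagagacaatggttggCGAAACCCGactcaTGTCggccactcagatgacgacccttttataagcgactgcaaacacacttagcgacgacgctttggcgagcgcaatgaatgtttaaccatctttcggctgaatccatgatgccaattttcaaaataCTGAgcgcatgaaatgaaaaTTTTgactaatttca
Y55F3BR.9: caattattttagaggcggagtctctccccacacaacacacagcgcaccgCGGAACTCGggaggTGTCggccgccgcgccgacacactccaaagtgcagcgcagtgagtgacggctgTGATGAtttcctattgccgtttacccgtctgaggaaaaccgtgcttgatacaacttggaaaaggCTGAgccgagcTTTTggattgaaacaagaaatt
Y53F4B.47: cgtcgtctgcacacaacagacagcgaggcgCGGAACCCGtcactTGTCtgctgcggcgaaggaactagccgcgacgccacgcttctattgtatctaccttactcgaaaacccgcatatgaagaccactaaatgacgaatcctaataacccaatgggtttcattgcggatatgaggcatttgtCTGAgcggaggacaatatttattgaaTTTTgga
C16D9.10: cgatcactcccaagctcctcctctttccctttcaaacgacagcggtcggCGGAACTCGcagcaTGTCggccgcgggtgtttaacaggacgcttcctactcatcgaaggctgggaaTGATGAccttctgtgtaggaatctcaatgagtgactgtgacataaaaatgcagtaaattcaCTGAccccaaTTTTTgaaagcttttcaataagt

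M7.15, an outside gene, has the strongest site of any snoRNA gene and neither layout. Its summit lay 186 bp upstream, in the promoter windows of let-70 and klc-1, so the stretch printed here does not hold it. Box D of the gene is in capitals.
M7.15: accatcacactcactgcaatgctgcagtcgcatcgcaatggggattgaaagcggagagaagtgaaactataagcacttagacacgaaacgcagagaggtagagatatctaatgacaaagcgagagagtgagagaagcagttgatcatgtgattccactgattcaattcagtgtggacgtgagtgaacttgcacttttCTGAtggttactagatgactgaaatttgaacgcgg

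The share of snoRNA genes with a site was lower among inside than among outside genes in this set, and both shares were above that of protein-coding genes. A site was found at 29 of 216 inside genes (13.4%, exact 95% interval 9.18 to 18.7) and at 32 of 130 outside genes (24.6%, interval 17.5 to 32.9), so that the intervals overlap over a narrow stretch. All snoRNA genes together stood at 61 of 346 (17.6%, interval 13.8 to 22.1), against 2.45% of all nuclear genes and 3.05% of protein-coding genes by the same rule. The rule takes in the whole gene, so longer genes had wider windows. tRNA genes stood at 22.5% and snRNA genes at 14.7%. Genes of the general class ncRNA stood at 104 of 3393 inside (3.07%) and 175 of 4371 outside (4%). Intervals treat genes as independent, which neighbours are not, and cover counting error only. From the shorter list of replicate 1 alone 40 snoRNA genes had a site, and from that of replicate 2 alone 34.

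**Figure D1:**
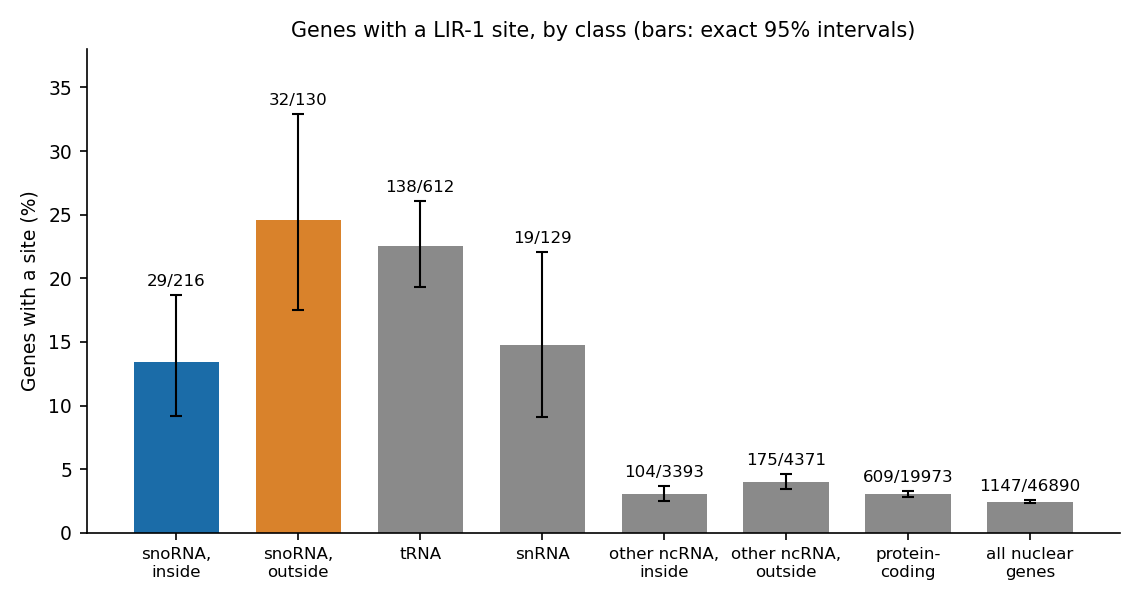
Percent of genes with a site in the gene or within 200 bp of its 5′ end, by annotation class. Bars are shares, error bars exact 95% binomial intervals and the numbers above genes with a site over all genes: snoRNA genes inside (29/216) and outside (32/130) stand above protein-coding genes (609/19973).

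Among inside genes, shares by strand and by place in the host had overlapping intervals. Genes on the host's strand had a site at 22 of 183 (12%, interval 7.69 to 17.6) and genes on the opposite strand at 7 of 33 (21.2%, interval 8.98 to 38.9). Genes within an intron stood at 25 of 170 (14.7%, interval 9.75 to 20.9) and genes touching a host exon at 4 of 46 (8.70%, interval 2.42 to 20.8). Distance from the host's own start was similar: genes with a site lay a median of 1861 bp from it, against 2086 bp for inside genes without one. Within 1000 bp of the host's start 6 of 67 genes had a site, and farther in 23 of 149.

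The 216 inside genes lay in 192 host genes, and 29 hosts held a snoRNA gene with a site. In the 24 hosts of 2 or more, 4 of 52 snoRNA genes had a site (7.69%, interval 2.14 to 18.5), against 25 of 164 that were the only snoRNA gene of their host (15.2%, interval 10.1 to 21.7), and the intervals overlap. The 3 hosts of 3 or more were nol-56, which encodes a core protein of box C/D snoRNPs, with K07C5.10, K07C5.11, K07C5.12 and K07C5.18; rpl-6, a ribosomal protein gene, with R151.11, R151.12 and R151.13; and top-2, a topoisomerase gene, with K12D12.6, K12D12.7 and K12D12.8. None of these 10 genes had a site, and 0 of 10 allows a share of up to 30% (3 counts of the total). The 13 ribosomal protein hosts carried 19 snoRNA genes and again 0 had a site, which allows up to 15.8%.

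By chromosome, snoRNA genes with a site numbered 17 of 74 on I (23.0%), 13 of 71 on II (18.3%) and 6 of 54 on III (11.1%). They numbered 10 of 59 on IV (16.9%) and 15 of 55 on V (27.3%). Of all genes of each chromosome, 4.92% of 4204 had a site on I, 3.61% of 5231 on II and 4.66% of 3859 on III. It was 0.751% of 19704 on IV and 2.41% of 7870 on V. The annotation holds far more genes on IV, so its share is not like for like with the others. On X there were 0 of 33, which allows a share of up to 9.09% by the rule of 3 counts and 10.6% as the upper end of the exact interval, while 3.87% of all X genes and 26.8% of the 276 tRNA genes on X had a site. Of the 33 X snoRNA genes, 1 had either upstream layout, and 9 had a weaker ranked peak (27.3%). Any ranked peak, sites included, was at 32.3% of all nuclear genes, whose windows differ with gene length.

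The summits lay just upstream of the snoRNA genes. A total of 63 pairs of gene and site were found, since C51F7.3 and C51F7.4 share 1 site and W04D2.7 and F32E10.10 have 2 each. The summit was upstream of the gene in 45 of 63 pairs, within it in 13 and past its end in 5. The median was 20 bp upstream over all pairs, 18 bp for inside genes and 37 bp for outside genes, and 53 of 63 summits were within 100 bp of the 5′ end. No snoRNA site was in or within 200 bp of a tRNA or snRNA gene, and none was shared by 3 or more snoRNA genes.

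**Figure D2:**
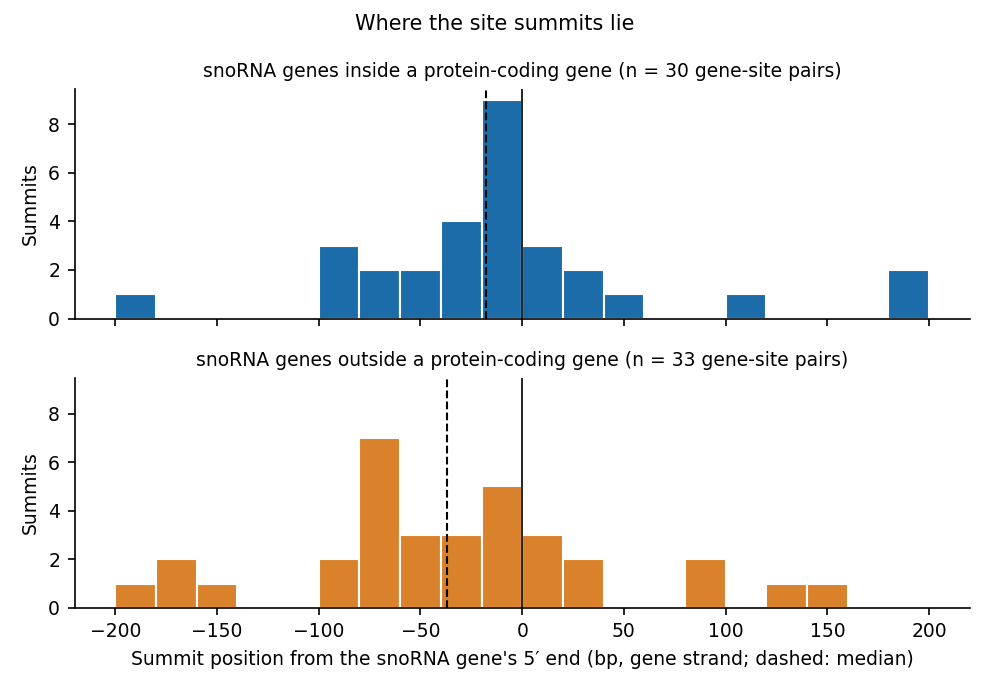
Summit positions relative to the snoRNA 5′ end in bp on the gene strand, counted in steps of 20 bp, for inside genes above and outside genes below. The solid line is the 5′ end and the dashed line the median, 18 bp upstream for inside and 37 bp upstream for outside genes.

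Protein-coding promoters were near some of these summits. A summit lay in the promoter window of a protein-coding gene, from 1000 bp upstream to 200 bp downstream of its 5′ end, at 16 of 62 sites (25.8%), against 648 of 1147 other sites (56.5%). For inside genes that was 4 of 29 sites, and at 2 of them (F39B2.14 and C02F5.15) the window was the host's own. For outside genes it was 12 of 33. For those sites the snoRNA gene and the protein-coding promoter cannot be told apart as the place precipitated. Counting only sites in no such window, a choice made after the data were seen, 25 inside genes (11.6%) and 20 outside genes (15.4%) had a site. The gap between the classes was then 3.81 percentage points in place of 11.2.

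The signal is a score of the authors' peak caller, used here to rank sites within the list. Its median was 94.7 at the 62 snoRNA sites and 85.7 at the 1147 others. It was 94.7 at the sites of inside genes and 92.6 at those of outside genes, and the whole range at snoRNA sites was 7.40 to 236.6. The 2 weakest, at 7.40 and 7.85, were second sites of W04D2.7 and F32E10.10 on the flank of a stronger peak.

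The strongest inside site was at ZK994.7 (WBGene00044958, V, 8500579 to 8500645), in an intron of the peroxidasin gene pxn-1 on the same strand. Its signal was 78.1 in replicate 1 and 98.7 in replicate 2 (mean 88.4 ± 14.6, SD, n = 2) and 168.8 over both libraries together, with the summit 9 bp upstream. Y37E3.20 (WBGene00044925, I, 2085037 to 2085155), in pcyt-2.1, followed with 145.6 (70.4 ± 1.95) and a summit 20 bp upstream. The nearest protein-coding 5′ end was 5681 bp from the first summit and 6062 bp from the second, so neither is in a coding promoter window.

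The next sites were at snoRNA genes that face against their host. B0334.12 (WBGene00007539, II, 11484683 to 11484752) lies in the potassium channel gene twk-5 and had a signal of 137.1 (65.8 ± 0.0983), with the summit 104 bp downstream, past the end of the gene. Y55F3BR.9 (WBGene00023183, IV, 867056 to 867133) lies in Y55F3BR.2 and had 134.2 (67.3 ± 14.6) with the summit 27 bp into the gene. T03F7.8 (WBGene00045071, V, 11314258 to 11314332) lies in the cuticlin-like gene cutl-18 and had 133.2 (63.6 ± 6.03), 9 bp upstream. The scores of the libraries, each on its own scale, differed by less than 10 units at B0334.12 and T03F7.8 and by more than 20 at Y55F3BR.9 and ZK994.7.

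The last of the 8 strongest inside genes share host sequence with other features. C02F5.15 (WBGene00219795, III, 8227863 to 8228045) overlaps an exon of its hosts and had 130 (65.0 ± 3.56), 184 bp upstream, within the promoter window of the host fbxl-1, an F-box gene. C51F7.3 (WBGene00014290, V, 12303708 to 12303783) and C51F7.4 (WBGene00219860, V, 12303599 to 12303693), both in the FERM domain gene frm-7, share a site of 122.8 (58.1 ± 12.7). It lay 93 bp upstream of C51F7.3 and 16 bp into C51F7.4, and C51F7.3 is the one of the pair with an A and B box pair.

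Outside genes held the strongest of all. At M7.15 (WBGene00220032, IV, 11083147 to 11083243) the signal was 102.8 in replicate 1 and 114.6 in replicate 2 (108.7 ± 8.29) and 236.6 over both, the 36th highest of the 1209 sites. Its summit lay 186 bp upstream, in the promoter windows of let-70, a ubiquitin-conjugating enzyme gene, and klc-1, a kinesin light chain gene. F59C6.15 (WBGene00045164, I, 10516978 to 10517150) had 125.4 in replicate 1, 71.4 in replicate 2 and 199.0 over both, with the summit 76 bp upstream. That was the widest gap between the scores of the libraries at any named gene (98.4 ± 38.2), and F59C6.18 has its promoter window there.

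W03C9.9 (WBGene00045127, II, 11960898 to 11960959) had 143.5 (71.1 ± 7.37) with the summit 76 bp upstream, away from any coding promoter window. F09G2.14 (WBGene00219888, V, 7196237 to 7196580), the longest snoRNA gene of the set, had 139.7 (69.2 ± 3.47), 86 bp upstream, in the windows of attf-2 and F09G2.2. Y67A10A.14 (WBGene00045163, IV, 14326948 to 14327121) had 126.5 (59.8 ± 0.257), 66 bp upstream, in that of fbxa-83. These 3 genes carry, in this order, the A and B box pair, neither layout and the 2-part element.

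Y53F4B.47 (WBGene00045141, II, 15025814 to 15025893) had 124.5 (64.4 ± 21.5), 27 bp upstream, in the promoter window of cmtr-1, which encodes an mRNA cap methyltransferase. T19B4.8 (WBGene00044930, I, 5707046 to 5707119) had 122.3 (58.7 ± 23.0), 37 bp upstream. T06C12.16 (WBGene00045140, V, 15873855 to 15873926) had 121.5 (60.9 ± 7.73), 46 bp upstream. The last 2 were in no coding promoter window and both have the A and B box pair.

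Scores of the 2 libraries are each on that library's own scale, which is unknown, so they are set side by side and not compared as levels. Over the 62 sites the median signal was 45.03 in replicate 1 and 49.8 in replicate 2, and replicate 2 was the higher at 35 sites. By class, replicate 2 was higher at 21 of 29 sites of inside genes and at 14 of 33 of outside genes. At the 1147 other sites it was higher at 522 (45.5%), with a value missing at 25. Of the 62 sites, 26 were in both libraries' own thresholded lists (41.9%, against 36.1% of other sites), 14 in that of replicate 1 alone, 7 in that of replicate 2 alone and 15 in neither. At 5 sites the library's peak also overlapped a second site, so its value there is not that of 1 site.

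**Figure D3:**
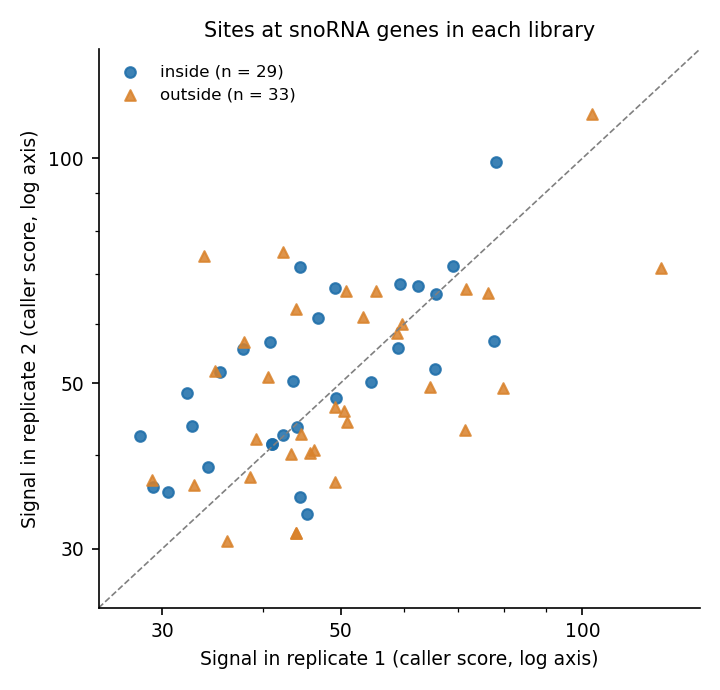
Signal of each of the 62 sites in the ranked list of replicate 1 (x axis) and of replicate 2 (y axis), both log axes, circles for inside and triangles for outside genes. The dashed line marks equal values; 35 sites lie above it, 21 of them at inside genes.

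No snoRNA gene had both upstream layouts: 25 genes had the A and B box pair, 32 the 2-part element and 289 neither. Among genes with the pair, 8 of 16 inside and 7 of 9 outside had a site. Among genes with the 2-part element, 8 of 16 inside and 8 of 16 outside had one. Among genes with neither, 13 of 184 inside (7.07%) and 17 of 105 outside (16.2%) had one. Because the letters were chosen from genes with a site, these shares describe the members and are no test of the letters. The shares inside and outside were equal for the 2-part element only.

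The same letters were also counted at genes that had no part in choosing them. The pair was found upstream of 19 of 19973 protein-coding genes (0.0951%) and the 2-part element upstream of 5 (0.0250%). Of these, 1 of the 19 and 0 of the 5 had a site, against 3.05% of all protein-coding genes. Among genes of the class ncRNA, 4 of 14 with the pair and 1 of 8 with the 2-part element had a site, against 3.59% of the class. The 2-part element was found upstream of 30 of 129 snRNA genes (23.3%), and 8 of these 30 had a site (26.7%), against 11 of the 99 others (11.1%). The spliced leader RNA genes sls, part of the snRNA class, had it at 9 of 30, and 5 of those 9 had a site. The sls genes thus make up most of the 8, and all snRNA genes stood at 14.7%. The pair was upstream of 0 snRNA and 0 tRNA genes, as tRNA genes hold their boxes inside the gene.

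Copies elsewhere in the genome rarely had a summit. Copies of the 2-part element, on either strand, had a summit within 100 bp at 16 of 32 places beside snoRNA genes, at 6 of 28 beside snRNA genes and at 4 of 671 elsewhere (0.596%). Copies of the pair had one at 15 of 28 places beside snoRNA genes, at 50 of 242 at tRNA genes (20.7%) and at 27 of 3649 elsewhere (0.740%). The tRNA copies did not stand out, since 22.5% of all tRNA genes had a site by the gene or 200 bp rule, a wider window. Most copies away from snoRNA, snRNA and tRNA genes were at no site. Seen from the sites, 32 of the 62 had a copy of either layout within 100 bp (51.6%), against 79 of the 1147 other sites (6.89%). The letters were chosen from snoRNA genes with a site. The counts at snoRNA genes and at the 62 sites are therefore high by that choice and are no test of the letters.

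The 2-part element lay at a narrow range of distance from the gene, and the boxes of the pair at wider ones. The element began 57 to 83 bp upstream in all 32 genes, with a median of 61 bp in the 16 with a site and 62 bp in the 16 without. In 11 of the 32 it began exactly 61 bp upstream. The A box began at a median of 57 bp upstream in genes with a site (positions -98 to -51) and 59.5 bp in those without (-111 to -49). The B box core began at a median of 14 bp upstream with a site (-44 to -7) and 17 bp without (-64 to -5). The stretch between the boxes was 33 bases in 16 of 25 genes (range 31 to 45), and also in 114 of the 236 tRNA genes where the same letters were found inside the gene (range 18 to 57). Genes without a site kept the same spacing, at a median of 33 bases.

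**Figure D4:**
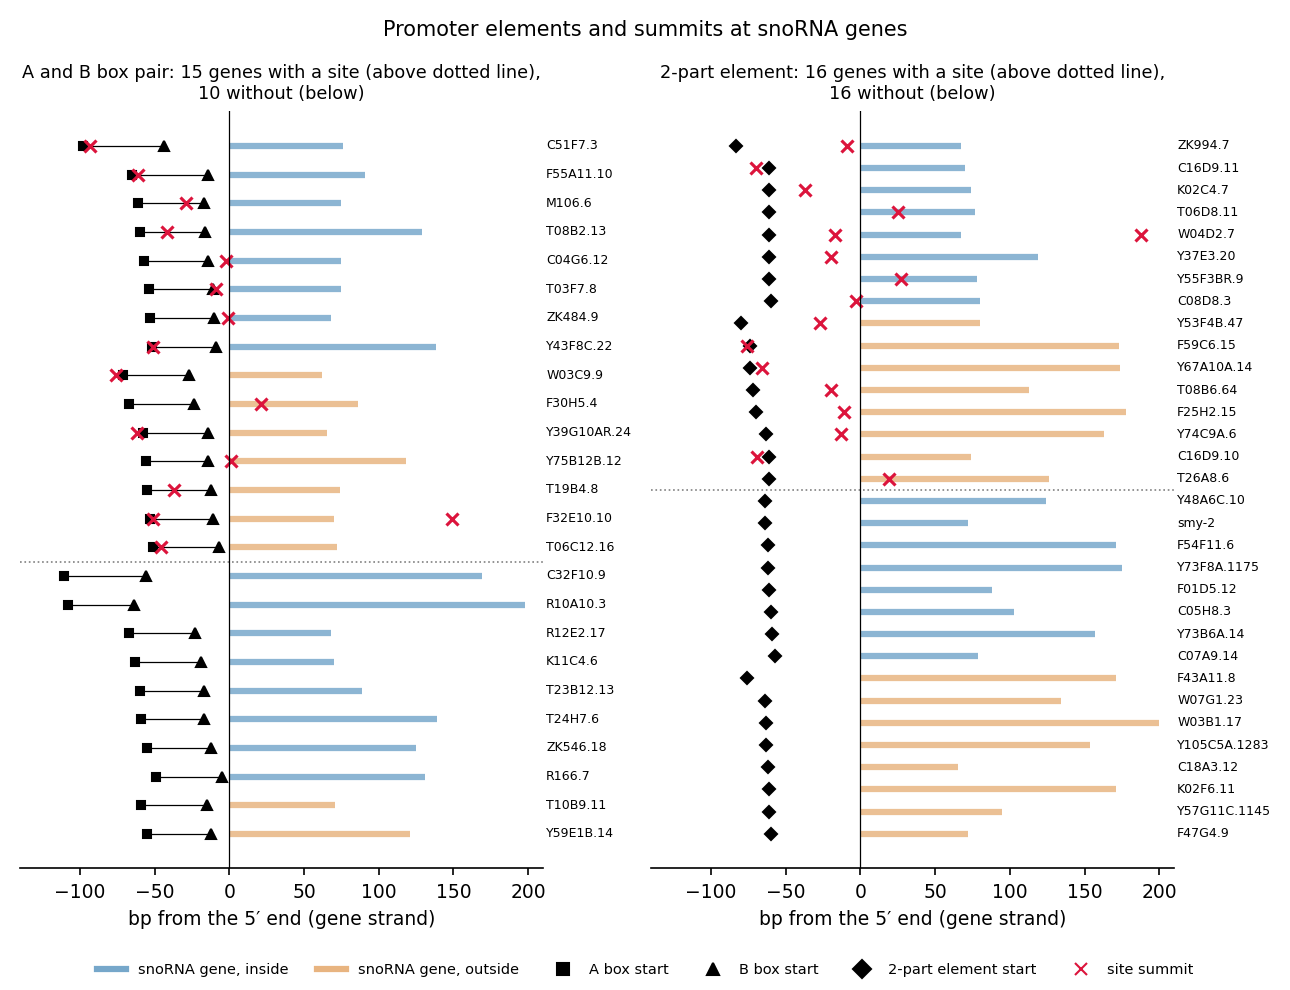
Positions of the A box (squares), B box core (triangles) and 2-part element (diamonds) and of site summits (crosses) in bp from the 5′ end of the 25 genes with the pair (left) and the 32 with the 2-part element (right). Coloured bars are the snoRNA genes; the rows above the dotted line have a site (15 and 16 genes) and the 2-part element starts 57 to 83 bp upstream in all 32 genes.

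Summits lay on or beside the layouts. At genes with the pair the median summit was 39.5 bp upstream, between the median starts of the A box and the B box core. At genes with the 2-part element it was 17 bp upstream, between the element and the gene. At genes with neither it was 22 bp upstream, with a wider spread (middle 50% of pairs from 86.8 bp upstream to 17.5 bp downstream). The median signal was 94.7 with the pair, 104.6 with the 2-part element and 93.8 with neither.

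Of the 30 genes with a site and neither layout, 10 had a summit in a protein-coding promoter window. A further 2, B0334.12 and C51F7.4, had a copy of the pair on either strand within 100 bp of the summit, that of C51F7.4 being the pair of its neighbour C51F7.3. The fixed B box GTTCNANNC was within 150 bp upstream of 4 of the 30, on either strand. In single outside genes such as F09G2.14 and M7.15 none of these letters was found in the windows searched.

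Other features differed between genes with and without a site. A run TTTT lay in the 30 bases after the gene at 27 of 29 inside genes with a site (93.1%), against 99 of 187 without (52.9%). At outside genes it was 20 of 32 (62.5%), against 37 of 98 (37.8%). The run lay after 605 of 612 tRNA genes (98.9%) and 9868 of 19973 protein-coding genes (49.4%). Read the other way, 2 of 90 inside genes with no T run had a site, B0334.12 and C51F7.4. By layout the picture was mixed. With the pair, 13 of 15 genes with a site had the run, against 9 of 10 without. With the 2-part element it was 14 of 16 with a site, against 9 of 16 without, and with neither layout 20 of 30, against 118 of 259.

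The fixed B box, counted on both strands and overlapping the pair at 19 genes, was upstream of 18 of 61 genes with a site (29.5%), against 21 of 285 without (7.37%) and 3.77% of protein-coding genes. A TATAAA, on either strand, was upstream of 9 of 61 (14.8%), against 38 of 285 (13.3%) and 25.4% of protein-coding genes. The B box was the more frequent with a site, and the TATA letters were not.

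Box C or box D letters were also more frequent with a site. Box C (TGATGA in the first 20 bases) or box D (CTGA in the last 15) was found in 31 of 61 genes with a site (50.8%), against 52 of 285 without (18.2%). The ACA letters 3 bases before the end were found in 8 of 61 (13.1%), against 50 of 285 (17.5%). Box D alone was found in 77 of the 346 genes, against 3.89% of protein-coding genes, and box C in 20, against 0.656%. The box C or D difference lay in genes with a layout. With the pair, these letters were found in 12 of 15 genes with a site, against 4 of 10 without. With the 2-part element it was 14 of 16 with a site, against 6 of 16 without. With neither layout it was 5 of 30 with a site (16.7%), against 42 of 259 without (16.2%). Any of the 3 letter groups was found in 134 of 346 genes (38.7%), so these strict letters leave most members' labels unchecked.

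Length followed the same line. Genes with a site had a median of 78 bp inside and 119.5 bp outside, against 130 bp inside and 143 bp outside for those without. In steps chosen after the values were seen, 33 of 95 genes of up to 100 bp had a site (34.7%), against 16 of 141 of over 100 and up to 150 bp (11.35%) and 12 of 110 longer ones (10.9%). T run, box D, short length and upstream layout went together in these genes, and their separate parts were not tested.

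Weaker peaks reached further into the set. The ranked list from which the conservative set was drawn holds 35275 more nuclear peaks, down to a global irreproducible discovery rate (IDR) of 0.866, where a low IDR means that the libraries rank a peak alike. Counting any of them or a site, 150 snoRNA genes (43.4%) had a peak, against 32.3% of all nuclear genes. Of the 150, 61 had a site and 89 a weaker peak only. At an IDR of 0.05 or lower, the 61 with a site included, it was 72 genes (20.8%), against 3.59%. The share with any ranked peak thus stood nearer to that of all nuclear genes than the share at the lower IDR did. Those genes differ in length and so in window, and the shares are not like for like. Of the genes without a site, 61 inside and 28 outside had a ranked peak.

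Weaker peaks were also counted by layout. With the pair, 7 of the 10 genes without a site had a ranked peak and 3 had none. With the 2-part element, 8 of 16 had one and 8 none. With neither, 74 of 259 had one and 185 none. Sites included, any ranked peak was at 88% of genes with the pair, 75% with the 2-part element and 36.0% with neither. Of all nuclear genes 32.3% had one, but the window is wider for longer genes, so this share is not like for like. The first 2 shares include the genes from which the letters were chosen. Taking the strongest weaker peak of each gene without a site, the median signal was 40.5, 50.5 and 35.2 in the same order. The median of all ranked peaks was 28.4, but it involves no choice of the strongest, so the values are not like for like.

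**Figure D5:**
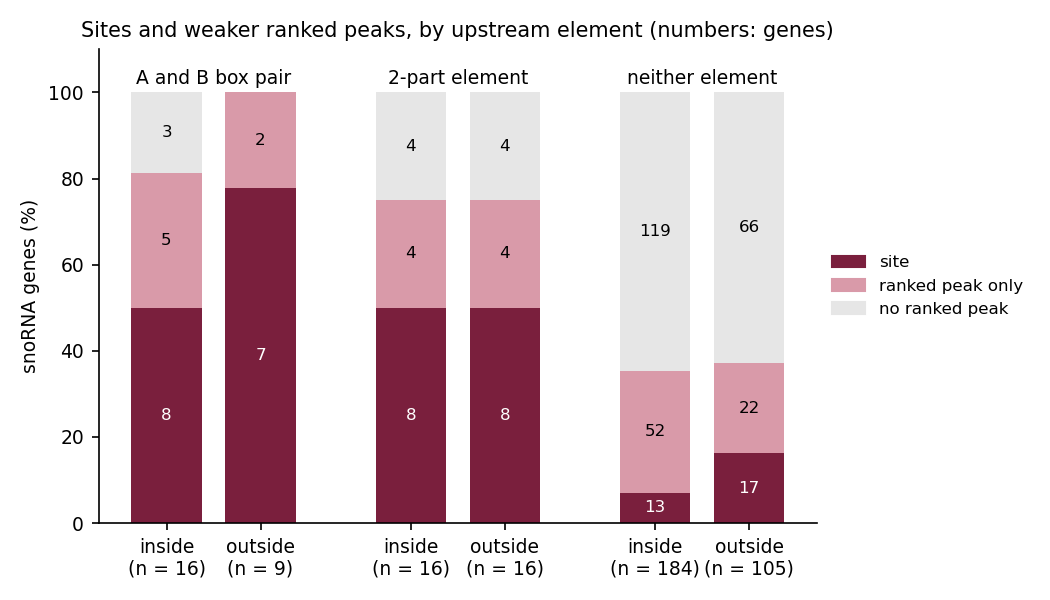
Percent of snoRNA genes with a site (dark), with a weaker ranked peak only (light) and with no ranked peak (grey), by upstream layout, inside left of outside in each pair of bars; numbers are genes. All 9 outside genes with the A and B box pair had a site or a ranked peak, while 185 of 289 genes with neither layout had none.

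The limit of the conservative set stood at an IDR of 0.00997, and of the strongest peaks at genes without a site, 3 in each class, 1 lay close to it. Outside, C41C4.11 (WBGene00045160, II, 8107196 to 8107270) had a peak of signal 79.7 and IDR 0.0101, just past it, 2 bp into the gene. C16D9.10, with a site, had 66.1 and IDR 0.00757. C41C4.11 has the fixed B box upstream but not the A box letters used here. F12F6.11 (65.7, IDR 0.655), which also has the fixed B box, and ZK20.9 (65.6, IDR 0.0694) followed. So a high signal could go with a high IDR.

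Inside, the strongest were T04A8.17 in ppat-1 (signal 71.1, IDR 0.664), T24H7.6 in T24H7.2 (67.4, IDR 0.0595) and F25H2.14 in tct-1, which encodes the translationally controlled tumour protein (65.9, IDR 0.0524). T24H7.6 has the A and B box pair and a T run, and its ranked peak lay 78 bp upstream of the gene. F25H2.14 starts 75 bp from its host's start, and its peak lay 134 bp into the gene.

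Most of the listed genes for snoRNP proteins had a site at their own promoter. Summits fell in the promoter windows of 7 of 11 listed genes (63.6%), against 883 of 19973 protein-coding genes (4.42%). The list is short and was chosen with earlier results known, so its share describes the listed genes and is no test. The core box C/D proteins were all among the 7: nol-58 (NOP58) had a signal of 103.6 (51.5 ± 18.4), fib-1, the fibrillarin methyltransferase, 88.9 (49.6 ± 15.3), snu-13 83.8 (39.1 ± 2.31) and nol-56 75.2 (38.4 ± 3.65). Of the H/ACA proteins, dkc-1, the pseudouridine synthase dyskerin, had 73.2 (34.8 ± 2.16) and Y48A6B.3, listed as nhp-2, 65.2 (33.1 ± 1.12), while nola-3 had no ranked peak and garr-1, the worm's GAR1 gene, had no site and a ranked peak of 24.9. These values are of the same order as at the snoRNA genes themselves, whose median was 94.7.

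The assembly ATPase gene ruvb-2 had a site of 74.2 (36.8 ± 2.53), while ruvb-1 had a ranked peak of 55.3 with an IDR of 0.0646. dao-5, which encodes a nucleolar protein, had a ranked peak of 39.8 with an IDR of 0.237. At the 7 genes the summit lay 74 bp upstream (fib-1) to 339 bp upstream (Y48A6B.3). The nol-56 promoter thus had a site while the 4 snoRNA genes within nol-56 had none.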

How the data were processed

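Chromatin precipitated with EGFP-tagged LIR-1 from whole young adult worms was sequenced in 2 libraries, and peak lists were analysed. The authors' deposited lists give each peak a signal written by their peak caller, and per the manifests deposited with the samples the peaks were derived from filtered alignments and a control alignment on ce11. The control was not analysed here. The aligner, the caller, the scaling of the signal and the treatment of reads with several matches were not stated in the sources used here, and depth is unknown. The authors' ranked list also gives −log10 of the global IDR, which was turned back into an IDR. The deposited summit offset in bp was added to the peak start, and coordinates are 1-based.

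Genes came from Ensembl release 115 (WBcel235), and 346 of 346 snoRNA genes have the same coordinates in RefSeq, whose genome gave the sequences. The members, gene lists, motifs and settings were chosen with earlier results of these data known. Results are counts, shares with exact (Clopper-Pearson) 95% binomial intervals and medians, with no tests, since the series has 1 group. Replicate values are the strongest peak in each library's own ranked list that overlaps the site by 1 bp or more. The list comparing the libraries has 8 columns of per-library values that were not used because they do not name the library, although its values had been planned for this purpose. Named are the 8 inside and 8 outside genes with the strongest sites, the 3 of each class without a site with the strongest ranked peak, hosts of 3 or more snoRNA genes and all listed snoRNP protein genes; a clone name in the list was matched through RefSeq. Other genes named were chosen after their values were seen. Alternatives were the other series set, either library alone, the stronger 50% of sites, other windows, other rules for inside genes and sites away from coding promoters or small RNA genes. Counting was tried on simulated data first. Python 3.11.15, pandas 2.3.3, numpy 2.4.6, scipy 1.17.1 and matplotlib 3.10.9 were used.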

Additional observations from a re-analysis of the deposited data

How the results depend on the processing

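The share with a site was lower among inside than among outside genes under each alternative tried, with differences (inside minus outside) of -13.04 to -2.61 percentage points, and -11.2 as reported. Leaving out 1 library gave 9.83% to 11.6% of all snoRNA genes with a site, 6.94% to 7.87% of inside genes and 13.1% to 19.2% of outside genes, from shorter lists; the median summit was then at -34.5 to -23.5 bp from the 5′ end. The median signal was 45.03 to 49.8 in a single library, on each library's own scale. Fewer genes had a site among the stronger 50% of sites (12.4% of all, 8.80% inside), with the summit in the gene only (3.76% of all, 2.78% inside, 5.38% outside) and, as a choice made after the data were seen, with sites in no coding promoter window (13.01% of all, 15.4% outside). These alternatives count fewer sites by construction. Ranked peaks at an IDR of 0.1 or lower were at 22.3% of snoRNA genes, and at 0.05 or lower at 20.8%. The other series set, windows of 100 and 500 bp, any base of the peak, the other rules for inside genes and genes with a shared site counted as 1 kept each share within its exact interval, as did motif windows of 100 and 200 bp for the motif shares. Windows of 100 and 500 bp and the other series set left the median summit at -20 bp. Counting genes of identical sequence as 1 and leaving out sites at tRNA or snRNA genes changed nothing, since there were 0 of either. No paired analysis was possible because the series has a single group. The lack of read totals limits what a gene without a site can show.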
